A study of Mus musculus with 19 samples.

Results

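A list of 34 immediate early and dissociation-response genes was followed through sorted splenic dendritic cells that had or lacked the stress-response genes Xbp1 and Ern1 (IRE1). All 34 symbols were among the 24421 symbols of the count tables of both cell types, and all 34 passed the filter on low counts, which kept 11353 genes in cDC1 and 11646 in cDC2. The list gives the genes by name, with no threshold on a measured value.

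Immediate early genes are transcribed within minutes of a stimulus, from promoters that are already open, without the need for new protein synthesis. Kinase cascades act on factors such as SRF with its ELK1 partner and CREB at these promoters, and the first products include AP-1 subunits, EGR zinc-finger factors and NR4A nuclear receptors. A second set of products shuts the response down: dual-specificity phosphatases dephosphorylate the kinases, ZFP36 proteins degrade AU-rich mRNAs, and TNFAIP3 and SOCS3 damp NF-kB and cytokine signalling. Many of the same genes, with inducible heat shock genes, are known to rise in cells while a tissue is taken apart and sorted, so their level in a sorted sample can hold both the state in the animal and the response to handling. IRE1 senses stress in the endoplasmic reticulum and cuts an intron out of Xbp1 mRNA, after which XBP1 is made as an active transcription factor.

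The 19 bulk RNA-seq libraries came from cDC1 and cDC2, the conventional dendritic cell subsets, sorted from the spleen of C57BL6 mice straight into lysis buffer. The genotypes were WT, Xbp1 KO (Xbp1-deficient) and Xbp1-Ire1 KO (deficient for both genes), with 3 libraries per genotype and cell type except 4 for cDC2 WT. The labels name no Cre driver, deleted exon, digestion step, sex, age or batch, and they do not state that each replicate was its own mouse. The p-values therefore measure only the spread of these libraries, which may be technical. Some library names carry the same number in both cell types, and whether such libraries share a mouse is not stated. The WT libraries carry names of 2 kinds. In cDC1, replicates 1 and 2 are named XBP1fl-fl-IRE1fl-fl (fl-fl below) and replicate 3 XBP1-IRE1-WT (WT-named below). In cDC2, replicates 1 and 2 are fl-fl and replicates 3 and 4 WT-named. The labels give all of them the genotype WT and do not say how the names differ in breeding or handling, so any such difference cannot be told apart from the name itself.

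Libraries held 10606864 to 16209469 counts. In CPM (counts scaled to one common library total), cDC1 markers summed to 6950 to 9050 in cDC1 and to 216 to 369 in cDC2, and cDC2 markers summed to 188 to 311 in cDC1 and to 2480 to 3540 in cDC2, as the sort labels say. Xbp1 and Ern1 are given in CPM scaled by TMM within a cell type. In cDC1, Xbp1 lay at 143 to 233 CPM in WT, lower in Xbp1 KO (89.7 to 113) and higher in Xbp1-Ire1 KO (301 to 353). In cDC2 the WT libraries held 72.6 to 160 CPM, those of Xbp1 KO 42.0 to 56.9 and those of the double knockout 57.3 to 78.1. Ern1 lay at 50.5 to 71.3 CPM in cDC1 Xbp1-Ire1 KO against 22.4 to 29.0 in cDC1 WT. A count over a whole gene does not test the loss of 1 exon, so neither gene checks the labels here. Replicate 3 of cDC1 Xbp1 KO held pancreatic acinar transcripts (2070 CPM in sum, against 8.80 CPM or less elsewhere).

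The promoters of the list differ in the elements they hold, which is why a few are shown. RefSeq promoters (GRCm38.p6, from 250 bases before each start) were found for 30 of the 34 genes and not for Egr1, Egr3, Ier2 and Myc. Both strands were searched for the CArG box bound by SRF, the cyclic AMP response element TGACGTCA bound by CREB, the AP-1 site TGACTCA, the heat shock element, and the core TGACGTGG of the unfolded protein response element. A match describes letters only, not a bound site. Capitals mark the matches, and each stretch is written 5′ to 3′ on the strand of its gene.
Egr2 (chr10:67537782-67537821, plus strand, CArG box): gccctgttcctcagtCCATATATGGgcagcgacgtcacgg
Dusp5 (chr19:53529053-53529082, plus strand, CArG boxes side by side): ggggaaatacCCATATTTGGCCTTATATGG
Zfp36 (chr7:28379267-28379296, minus strand, CArG box): ccaggccgccCCATAAAAGGagaaagctcc
Btg2 (chr1:134079299-134079336, minus strand, cyclic AMP response element): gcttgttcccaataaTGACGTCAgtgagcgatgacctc
Dusp1 (chr17:26508593-26508630, minus strand, cyclic AMP response element): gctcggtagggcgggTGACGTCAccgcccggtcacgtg
Maff (chr15:79347476-79347513, plus strand, cyclic AMP response element): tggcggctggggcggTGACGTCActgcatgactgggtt
Csrnp1 (chr9:119983024-119983140, minus strand, AP-1 sites read on the other strand): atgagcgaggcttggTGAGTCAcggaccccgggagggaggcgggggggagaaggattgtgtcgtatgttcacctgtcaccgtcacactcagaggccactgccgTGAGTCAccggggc
Tnfaip3 (chr10:19015529-19015557, minus strand, AP-1 site): aaatgcccaggTGACTCAcgcggggacac
Tnfaip3 (chr10:19015560-19015589, minus strand, unfolded protein response core): ccacatggatgTGACGTGGaaggcagcttc

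The CArG box was found in 3 of the 30 promoters (10%) and in 1.62% of the 27025 genes with a promoter. For the cyclic AMP response element the shares were 10% and 1.77%, and for the AP-1 site 6.67% and 5.16%. The unfolded protein response core was found for Tnfaip3 alone among the listed genes (3.33% against 0.603% of all genes), and the heat shock element for 0 of 30 (0.514% of all genes). Holders of one element did not all pass the same test. Egr2 and Dusp5 both hold CArG boxes, and in cDC1 Egr2 was called in Xbp1 KO against WT while Dusp5 was not (log2 fold change 0.41, adjusted p = 0.299).

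On a scale of CPM per kilobase of exon, which allows genes to be compared, Btg2, an antiproliferative early gene, was the highest of the 34 in both cell types, with means of 1186 in cDC1 and 1859 in cDC2. Fos followed with 1036 and 1487. The AP-1 subunit gene Junb (694 and 1067), the nuclear receptor gene Nr4a1 (566 and 1084) and the mRNA decay factor gene Zfp36 (422 and 1021) came next in both, in a different order. The small MAF factor gene Maff was the lowest in both, at 4.13 and 13.9. CPM below is scaled by TMM within a cell type and is not divided by length. Counts of Hspa1a and Hspa1b, near-identical neighbours on chromosome 17 (chr17:34969190-34972156 and chr17:34956436-34959238), can be split between the copies and are uncertain. Exons of Jun, Junb, Jund, Dusp1, Dusp5, Zfp36, Zfp36l1 and Csrnp1 overlap a gene on the opposite strand, and Hspa1a also overlaps Gm20481. Whether the counting used strand is not given in the sources used here.

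**Figure D1:**
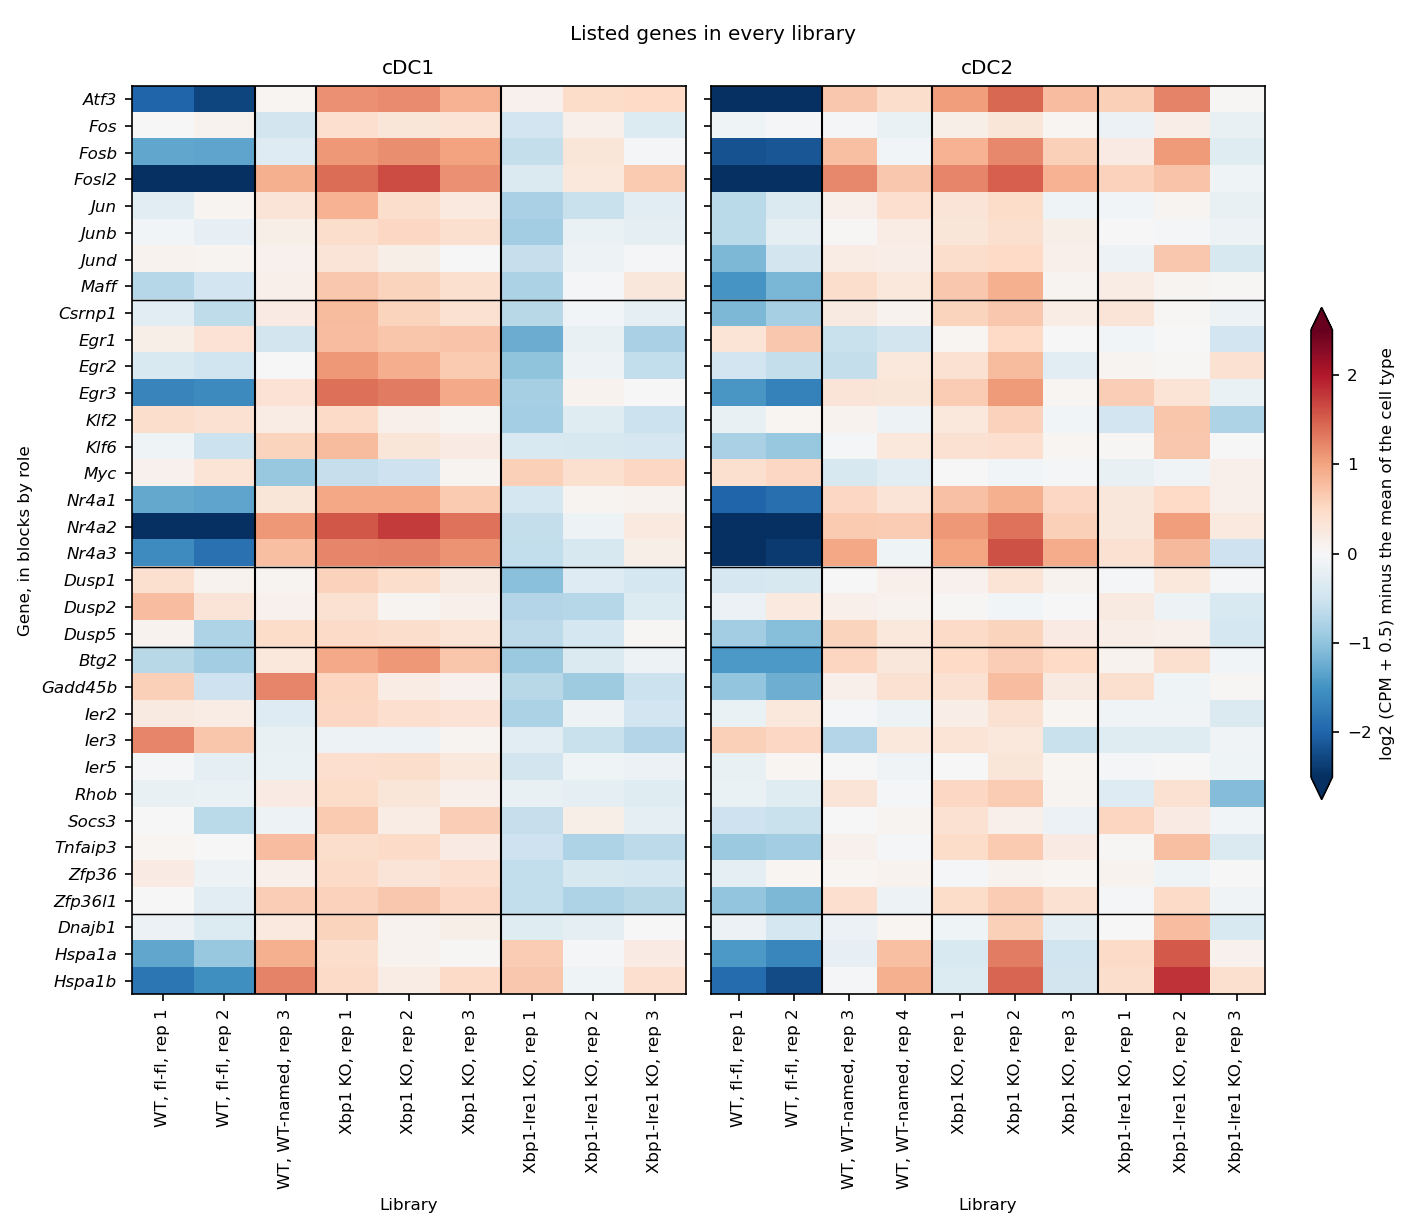
Level of each listed gene (rows, in blocks by role) in each of the 19 libraries (columns, grouped by WT name and genotype), as log2 (CPM + 0.5) minus the mean of that gene over the libraries of its cell type, with colours ending at 2.5 in either direction. The fl-fl WT columns are low for Atf3, Fosb, Fosl2, Egr3 and the Nr4a genes in both cell types, and the cDC1 Xbp1-Ire1 KO columns are low for the phosphatase and feedback genes.

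Libraries of different name within the WT groups differed in many of the listed genes. Atf3, a stress-induced CREB-family factor (chr1:191170296-191218039), lay at 38.3 and 30.9 CPM in the fl-fl cDC1 libraries and at 159.5 CPM in the WT-named one. In cDC2 it lay at 56.6 and 39.4 CPM in fl-fl and at 655 and 555 CPM in WT-named libraries. The log2 differences were 2.20 ± 0.19 (SE) in cDC1 and 3.66 ± 0.34 in cDC2 (adjusted p = 5.22e-05 and 3.25e-05). The fl-fl libraries were the lowest for Atf3 in either cell type, knockouts included, with no overlap. In bulk samples such as these, fewer cells of a type that expresses a gene and less RNA of it per cell cannot be told apart.

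The nuclear receptor genes Nr4a1, Nr4a2 and Nr4a3 followed the same split. Nr4a2 lay at 56.0 and 54.1 CPM in fl-fl and at 729 CPM in WT-named cDC1, and at 42.6 and 48.8 against 559.6 and 550.4 CPM in cDC2. Its log2 differences were 3.73 ± 0.25 and 3.60 ± 0.29 (adjusted p = 5.48e-06 and 5.62e-06). Nr4a1 lay at 705 and 691 CPM in fl-fl and at 2139 CPM in WT-named cDC1, and at 802 and 870.0 against 4578 and 3985 CPM in cDC2. All 3 receptor genes had both fl-fl libraries below every other library of the cell type. Nr4a3 lay at 28.6 and 23.3 CPM in fl-fl against 145 CPM in WT-named cDC1.

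Among AP-1 genes the split divided the family. Fosl2 lay at 3.16 and 4.92 CPM in fl-fl and at 57.4 CPM in WT-named cDC1, and at 10.8 and 13.4 against 291 and 200.5 CPM in cDC2. Fosb lay at 63.7 and 62.9 CPM against 126 CPM in cDC1, and at 57.2 and 59.1 against 444 and 249 CPM in cDC2. Both were called higher in WT-named libraries of each cell type, Fosb with a log2 difference of 0.99 ± 0.25 in cDC1 (adjusted p = 0.0343) and 2.57 ± 0.37 in cDC2 (adjusted p = 0.00132). Fos, their paralog, lay at 2397 and 2521 CPM in fl-fl and at 1722 CPM in WT-named cDC1, and at 3226 and 3401 against 3361 and 3119 CPM in cDC2. Its log2 difference was −0.52 ± 0.20 in cDC1 and −0.03 ± 0.13 in cDC2, and neither passed the test (adjusted p = 0.151 and 0.945).

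The EGR family was divided in a like way. Egr3 lay at 68.9 and 71.6 CPM in fl-fl and at 279 CPM in WT-named cDC1, and at 53.2 and 45.3 against 183 and 182 CPM in cDC2. Egr1 ran in the other direction, at 2084 and 2598 CPM in fl-fl cDC2 against 1110 and 1197 CPM in the WT-named libraries, a called log2 difference of −1.02 ± 0.19 (adjusted p = 0.00845). Myc, the growth regulator, was also lower in WT-named libraries, at 20.2 against 42.1 and 49.8 CPM in cDC1 and at 37.8 and 41.5 against 66.4 and 71.9 CPM in cDC2. In cDC1, Ier3, an early gene linked to cell survival, was lower as well (65.5 against 174 and 121 CPM).

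In all, 13 of the 34 genes were called higher and 2 lower in the WT-named cDC1 library, where 3.15% and 2.09% of all genes tested were called. In cDC2 there were 16 higher and 2 lower, against 2.14% and 1.26% of all genes. The median log2 difference of the 34 genes was 0.57 in cDC1 and 0.93 in cDC2, and that of all genes −0.01 and −0.02. The 11 genes called higher in both cell types were Atf3, Btg2, Egr3, Fosb, Fosl2, Hspa1b, Klf6, Nr4a1, Nr4a2, Nr4a3 and Zfp36l1. They made up 84.6% of the cDC1 set and 68.8% of the cDC2 set. The like overlap over all genes called was not computed. The inducible chaperone gene Hspa1b lay at 36.9 and 44.5 CPM in fl-fl against 310.1 CPM in WT-named cDC1, while the co-chaperone gene Dnajb1 was not called in either cell type (log2 difference 0.49 and 0.25). The cDC1 comparison has 1 library on the WT-named side, which is assumed to vary like the other groups.

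Without fl-fl replicate 2 the count of calls between the names was 9 in cDC1, and without that of cDC2 it was 11 there. The calls that held under every alternative were Atf3, Egr3, Fosl2, Hspa1a, Hspa1b, Nr4a1, Nr4a2 and Nr4a3 in cDC1 (8 of 15) and Atf3, Btg2, Dusp5, Fosb, Fosl2, Maff, Nr4a1, Nr4a2 and Nr4a3 in cDC2 (9 of 18). In cDC1 the call of Fosb was lost without fl-fl replicate 1 or 2 or Xbp1 KO replicate 1 or 2 (adjusted p up to 0.135), that of Myc without either fl-fl replicate (up to 0.0976) and that of Ier3 without fl-fl replicate 1 (0.0865). In cDC2 those of Egr1 and Myc were lost without fl-fl replicate 2 or either WT-named replicate (up to 0.104 and 0.164), and that of Hspa1b without any 1 of the 4 WT libraries (up to 0.242).

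Summed monocyte markers (6 of 6 genes) lay at 56.8 to 71.0 CPM in fl-fl and 91.4 CPM in WT-named cDC1, with Fcgr1 at 0 in the latter, and at 980 to 1180 CPM in fl-fl and 898 to 919 CPM in WT-named cDC2. Red pulp macrophage markers (8 of 8 genes) lay at 239 to 243 against 372 CPM in cDC1 and at 627 to 795 against 503 to 930 CPM in cDC2. In cDC2 the monocyte sum was lower in both WT-named libraries than in both fl-fl libraries, and the macrophage sums overlapped. Platelet markers (19.4 to 25.6 against 8.73 to 10.6 CPM) and B cell markers (94.4 to 111 against 69.0 to 81.7 CPM) were also lower. So were T cell, NK cell, plasmacytoid dendritic cell and cDC1 markers, and the remaining marker sums overlapped. The part of these cells in the results was not tested.

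Dusp5, Maff and Csrnp1 passed the test between the names in cDC2 and not in cDC1 (adjusted p = 0.155, 0.291 and 0.117 in cDC1). So did Jun and Gadd45b, and Egr1 as a lower gene (edgeR adjusted p = 0.342, 0.0705 and 0.172 in cDC1). The cDC2 calls of Csrnp1, Gadd45b and Jun were each lost without at least 1 WT library (adjusted p up to 0.0507, 0.05 and 0.215). Dusp5, a phosphatase of nuclear ERK, lay at 277 and 243.5 CPM in fl-fl and at 746 and 615 CPM in WT-named cDC2, and at 248 and 136 against 321 CPM in cDC1. Maff lay at 11.4 and 14.4 CPM against 44.3 and 39.1 CPM in cDC2, and Csrnp1, a nuclear early-response factor, at 201 and 247 against 511 and 469 CPM. For Dusp5, Maff and Csrnp1 the fl-fl libraries were the lowest of cDC2, knockouts included. Whether the difference between the names itself differed between the cell types was not tested.

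Over all groups of a cell type, both fl-fl libraries lay below every other library for 9 of the 34 genes in cDC1 and 22 in cDC2. The share of all genes tested with that pattern was 11.4% in cDC1 and 9.46% in cDC2. Both lay above every other library for Ier3 in cDC1 (12.6% of all genes) and for Ier3 and Myc in cDC2 (10.3% of all genes). In cDC2, a fl-fl library was the lowest of all for 26 of the 34 genes. In cDC1 this was so for 13, and an Xbp1-Ire1 KO library was the lowest for 20. The like shares of all genes were not computed.

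**Figure D2:**
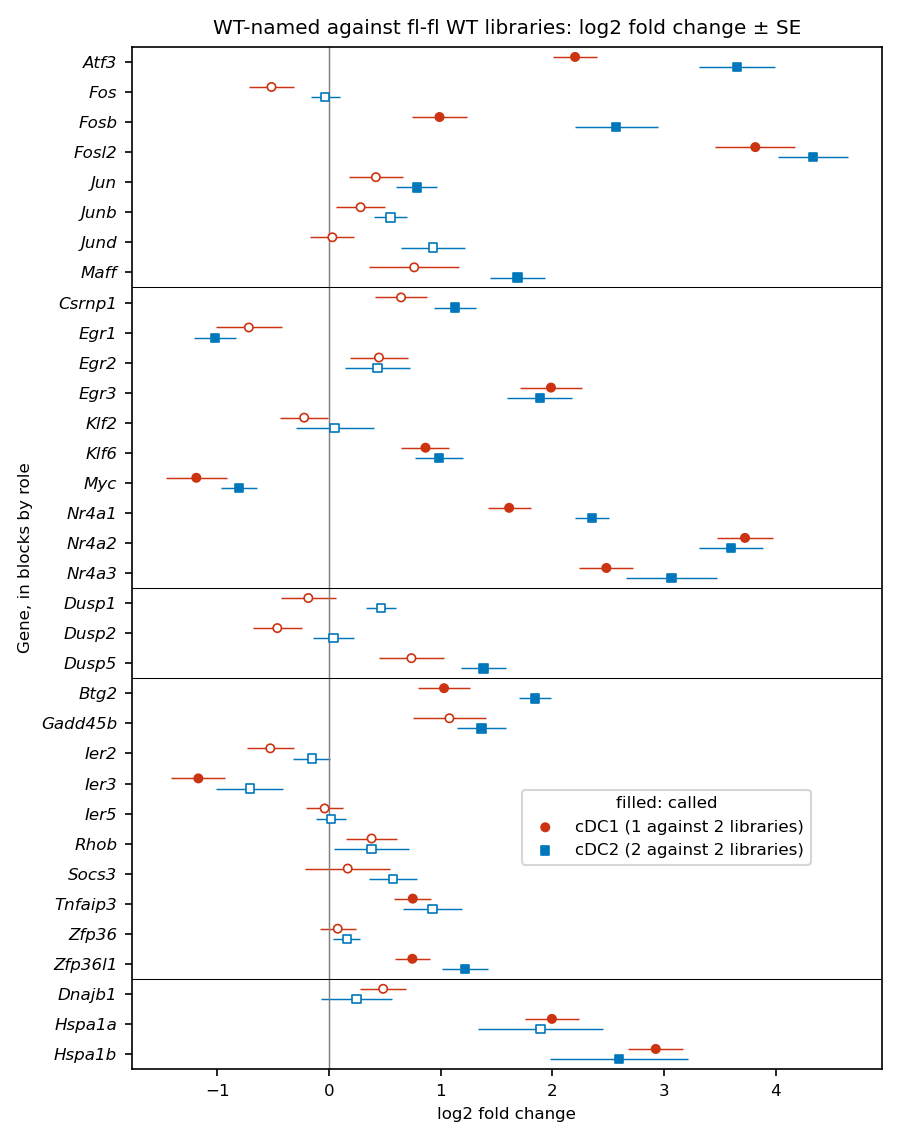
Log2 fold change of WT-named against fl-fl WT libraries for each listed gene, with bars of 1 SE, in cDC1 (red circles) and cDC2 (blue squares); filled symbols passed an adjusted p of 0.05. Fosl2, Nr4a2 and Atf3 lie farthest to the right in cDC2, Egr1 and Myc lie left of 0 in both cell types, and Fos, Zfp36 and Ier5 are open in both.

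**Figure D3:**
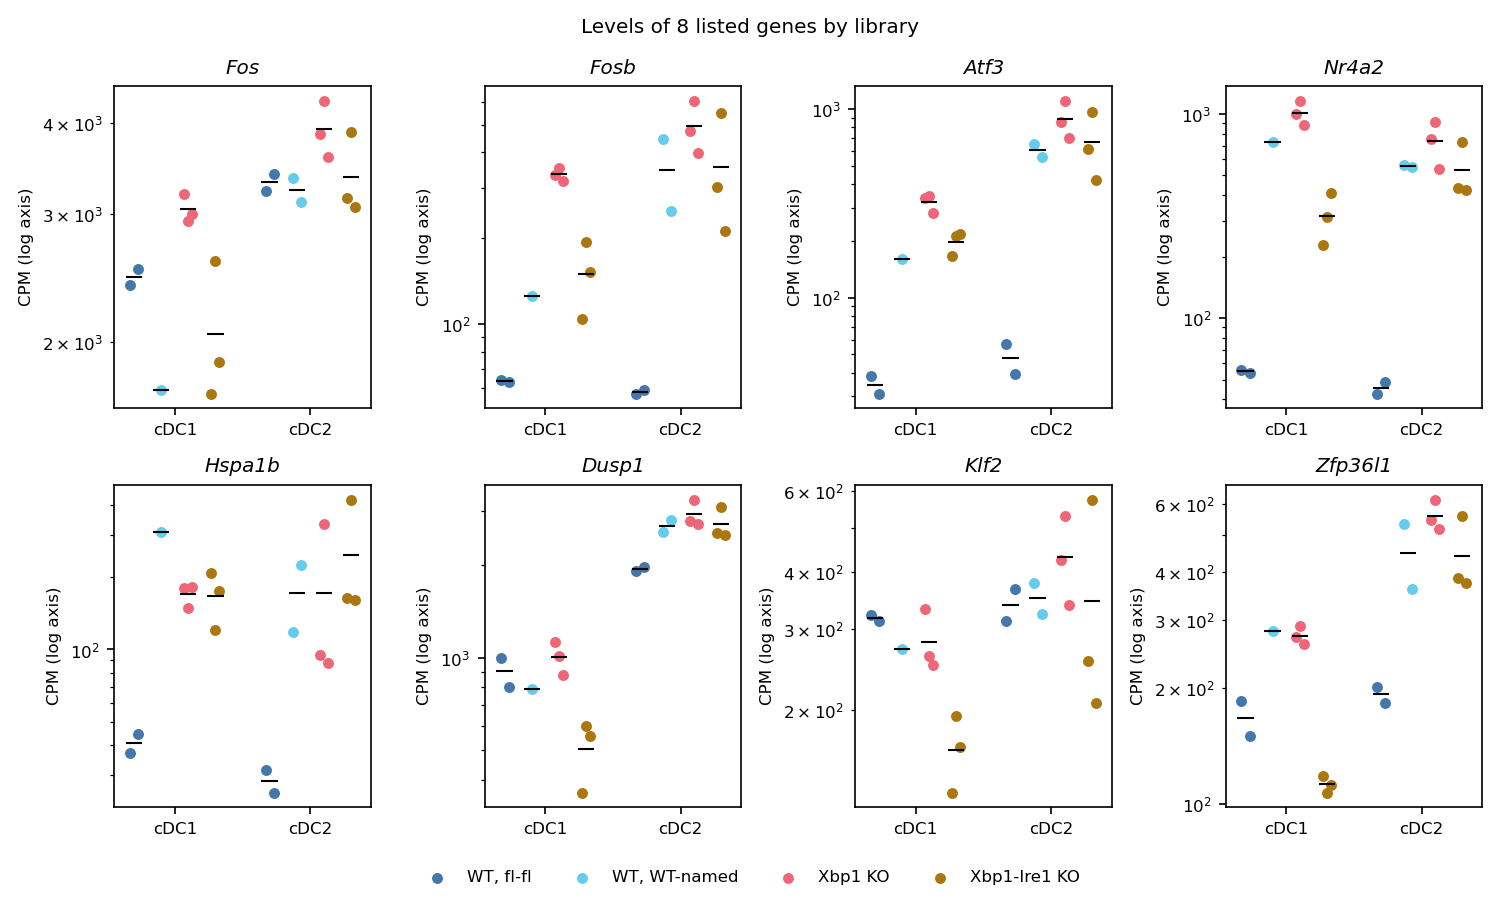
CPM on a log axis for 8 listed genes in every library (points), with a line at the mean of each of the 8 groups. For Fosb, Atf3, Nr4a2 and Hspa1b the dark blue fl-fl points are the lowest of each cell type, while for Dusp1, Klf2 and Zfp36l1 the lowest cDC1 points are those of Xbp1-Ire1 KO.

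The comparison of Xbp1-Ire1 KO with Xbp1 KO asks what the loss of Ire1 adds where Xbp1 is already gone. It uses no WT level, but its fit took the spread from all cDC1 libraries, WT of both names included. In cDC1, 18 of the 34 genes fell, 0 rose and 32 of 34 fold changes were below 0, with a median log2 change of −0.87 against 0.02 for all genes. Of all genes tested, 5.52% were called lower and 7.13% higher. The 18 genes were 4 of 8 AP-1 genes, 6 of 10 other transcription factor genes, 2 of 3 phosphatase genes, 6 of 10 feedback genes and 0 of 3 heat shock genes. No group overlapped the other for any of the 18. The same held for genes that were not called, such as Fosl2, Jund and Atf3, so it does not set the 18 apart. The share of all genes without overlap was not computed.

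Egr2, a zinc-finger factor, fell from 1262, 1106 and 932 CPM in Xbp1 KO to 295, 540 and 386 CPM in the double knockout. The log2 change was −1.43 ± 0.21 (adjusted p = 0.000575). Ier5, an early gene tied to the heat shock factor HSF1, lay at 1312, 1322 and 1180 CPM in Xbp1 KO against 708, 909 and 883 CPM (−0.61 ± 0.12, adjusted p = 0.0066). Egr1 lay at 2797, 2673 and 2716 CPM against 697, 1458 and 945 CPM (−1.40 ± 0.24, adjusted p = 0.0023). Every Xbp1-Ire1 KO library was below every Xbp1 KO library for these genes, with replicate 1 the lowest.

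Among feedback genes, Zfp36l1 (chr12:80107754-80113013), an mRNA decay factor, fell from 271, 290 and 259.8 CPM to 118, 107 and 112 CPM. Its log2 change was −1.28 ± 0.19 (adjusted p = 0.000611), and the 3 libraries of either group lay close together. Its paralog Zfp36 fell from 1983, 1763 and 1904 CPM to 918, 1076 and 1045 CPM (−0.89 ± 0.12, adjusted p = 0.000391). Tnfaip3, the ubiquitin-editing inhibitor of NF-kB also known as A20, fell from 141, 144 and 119.8 CPM to 72.2, 60.8 and 65.5 CPM. Btg2 fell from 5527, 6047 and 4609 CPM to 1510, 2212 and 2628 CPM (−1.35 ± 0.26, adjusted p = 0.00524).

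The MAP kinase phosphatase gene Dusp1 fell from 1126, 1015 and 878 CPM to 364, 598 and 555 CPM (−0.99 ± 0.18, adjusted p = 0.00284), and Dusp2 fell by 0.78 on the log2 scale. Jun fell from 658, 488 and 425.5 CPM to 205, 243 and 296 CPM (−1.08 ± 0.19, adjusted p = 0.00295), and Junb fell by 0.84, from 2075, 2208 and 2037 CPM to 842.5, 1373 and 1316 CPM. Klf2, a quiescence factor, lay at 333, 262 and 250.5 CPM against 132, 194 and 165.5 CPM (−0.78 ± 0.16, adjusted p = 0.00632). Jund, the constitutive member of the JUN family, did not pass (−0.40 ± 0.14, adjusted p = 0.0816), nor did Hspa1a (0.09), Hspa1b (−0.02) or Myc (0.82 ± 0.27, adjusted p = 0.0643).

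Of the 18 calls, 12 held under every alternative run: Btg2, Dusp1, Egr1, Egr2, Ier2, Ier5, Jun, Junb, Klf2, Tnfaip3, Zfp36 and Zfp36l1. Those of Csrnp1, Dusp2, Egr3, Fos, Fosb and Klf6 were each lost without Xbp1-Ire1 KO replicate 1, and all of these except Fosb also without at least 1 other library (adjusted p up to 0.0661, 0.0648, 0.181, 0.181, 0.0594 and 0.128). The count was 12 without that library, and it rose to 30 without the WT-named library or with the knockouts fitted alone. Without Xbp1 KO replicate 3, the library with pancreatic transcripts, it was 17.

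Marker sums moved with this comparison, those of cDC1 included. The cDC1 markers summed to 7360, 8210 and 7210 CPM in Xbp1-Ire1 KO against 9050, 8450 and 8500 CPM in Xbp1 KO. Of these 8 genes, 5 were called lower and 0 higher, where 5.52% and 7.13% of all genes were called. Neutrophil markers (6 of 7 listed genes in the tables) summed to 17.9, 57.5 and 21.4 CPM in Xbp1-Ire1 KO against 0, 12.6 and 1.39 CPM in Xbp1 KO, led by Ngp in the former. Erythroid markers (6 of 6) summed to 6.03 to 19.2 against 2.03 to 3.59 CPM, led by Alas2, with Hba-a1, Hba-a2 and Hbb-bt at 0 in all libraries. Platelet markers (9.99 to 14.2 against 4.14 to 8.93 CPM) and NK cell markers (1.15 to 2.47 against 0.0846 to 0.82 CPM) did not overlap either. Monocyte markers overlapped, at 53.1 to 196 against 117 to 220 CPM, as did red pulp macrophage markers, at 196 to 749 against 177 to 922 CPM. The part of other cells, or of a change in cDC1 markers, in the result was not tested.

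Against WT, cDC1 of Xbp1 KO had higher levels of 8 genes: Atf3, Btg2, Csrnp1, Egr2, Egr3, Fosb, Ier5 and Nr4a1. None of the 34 was called lower, and by edgeR 21 of 34 had an unadjusted p under 0.05. Here and below, the share of all genes under that unadjusted cut was not computed. Of all genes tested, 4.28% were called higher and 6.91% lower. The median log2 change of the 34 genes was 0.44, and that of all genes −0.02.

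Levels of Fosb in Xbp1 KO were 334, 353 and 318 CPM, and those in WT 63.7, 62.9 and 126 CPM (1.99 ± 0.26, adjusted p = 0.00032). Egr2 lay at 1262, 1106 and 932 CPM against 453, 417 and 594 CPM (1.17 ± 0.21, adjusted p = 0.00283). For both, the WT-named library was the highest of the WT libraries and still below all of Xbp1 KO. These were the calls that held under every alternative. Those of Atf3 and Btg2 were lost without fl-fl replicate 1 (adjusted p = 0.0567 and 0.0548) and that of Ier5 without fl-fl replicate 2 or Xbp1 KO replicate 1 or 2 (up to 0.0804), while Egr3, Nr4a1 and Csrnp1 were each lost without fl-fl replicate 1, fl-fl replicate 2, Xbp1 KO replicate 1 or Xbp1 KO replicate 2 (adjusted p up to 0.075, 0.0908 and 0.116).

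The count depended on which WT libraries were used. It was 23 without the WT-named library, 3 without fl-fl replicate 1, and 4 without fl-fl replicate 2 or without Xbp1 KO replicate 1 or 2. In a fit with the names apart, 21 genes were called higher and 1 (Ier3) lower against fl-fl WT, where 11.1% and 12.1% of all genes were called. Against the WT-named library 4 were called higher and 0 lower, where 1.05% and 2.12% of all genes were called. These 4 were Atf3 (1.03 ± 0.20, adjusted p = 0.00985), Egr1 (1.20 ± 0.29, adjusted p = 0.0375), Fos (0.83 ± 0.20, adjusted p = 0.0314) and Fosb (1.42 ± 0.26, adjusted p = 0.00656). The calls of Egr1 and Fos were lost without any 1 of fl-fl replicates 1 and 2 and Xbp1 KO replicates 1 and 2 (adjusted p up to 0.0869 and 0.0856). Both fits share the Xbp1 KO libraries. The size of a change also depended on the name: for Nr4a2 the log2 change was 4.22 with fl-fl as the base and 0.49 with the WT-named library, and for Hspa1b it was 2.07 and −0.85. Summed monocyte markers were higher in Xbp1 KO (117 to 220 CPM) than in cDC1 WT (56.8 to 91.4 CPM), and T cell markers were lower (3.02 to 6.38 against 6.98 to 9.82 CPM). The cDC1 markers were higher as well, at 8450 to 9050 against 6950 to 7670 CPM. The part of these marker shifts in the result was not tested.

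**Figure D4:**
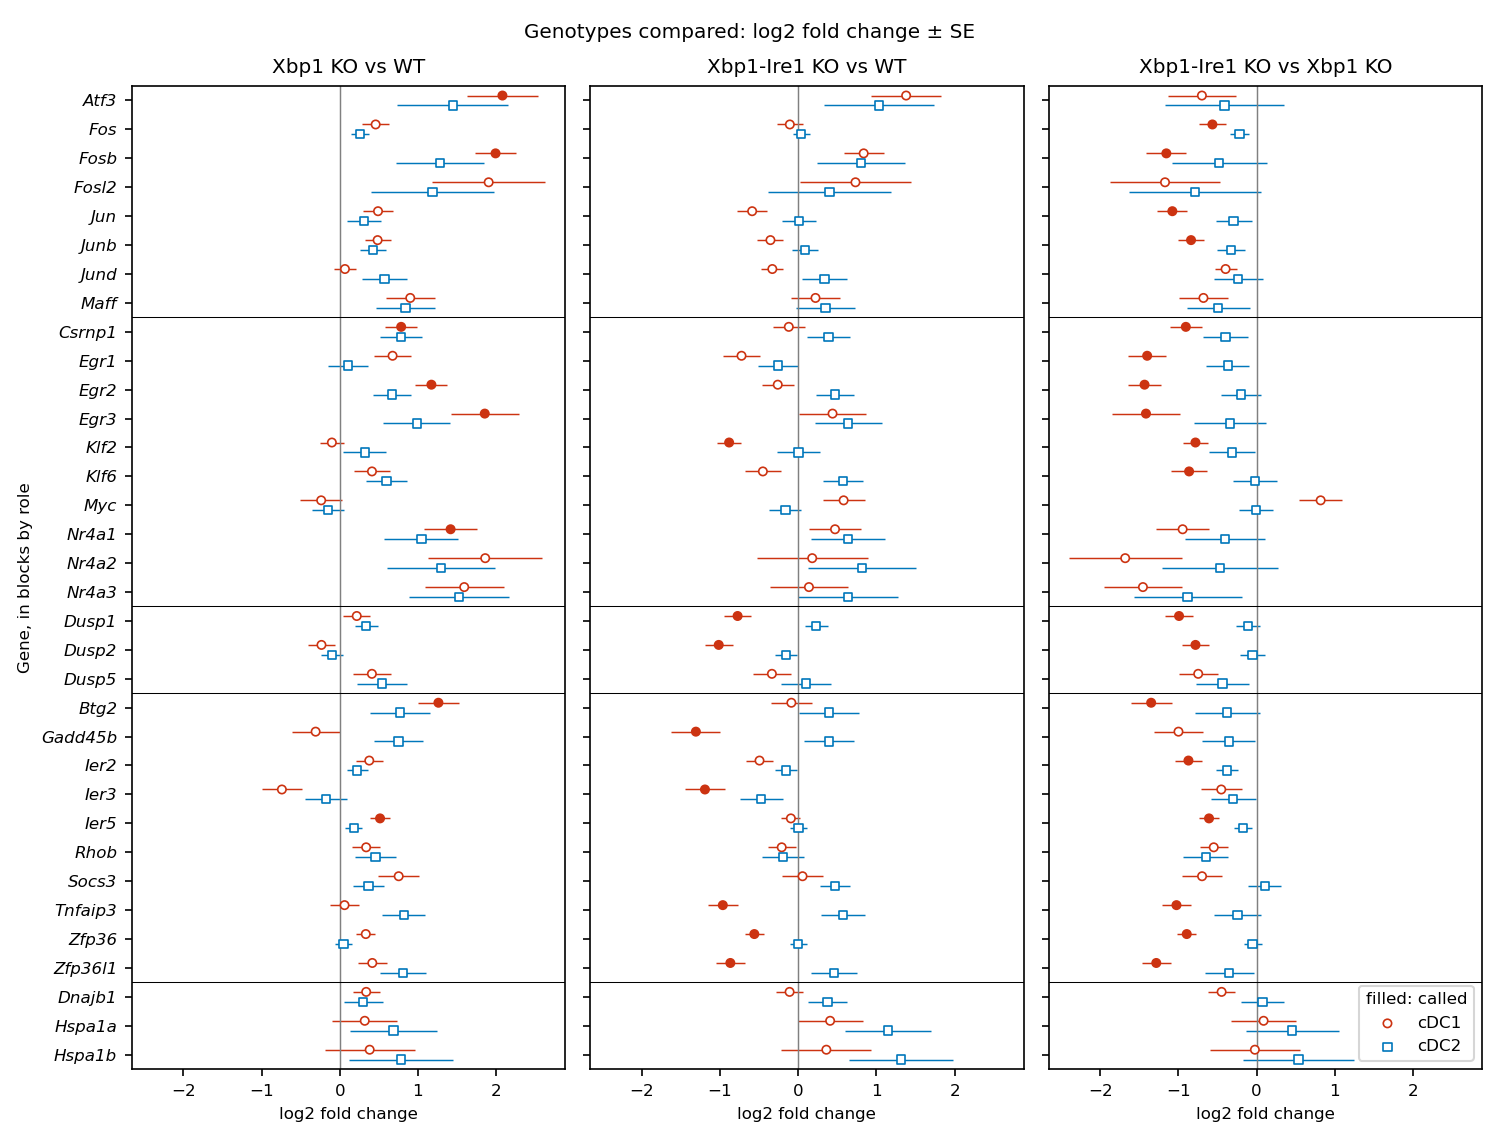
Log2 fold change with bars of 1 SE for each listed gene in the 3 comparisons of genotypes, in cDC1 (red circles) and cDC2 (blue squares), with WT libraries of both names pooled; filled symbols passed an adjusted p of 0.05. All filled symbols are red: 8 right of 0 in Xbp1 KO against WT, 8 left of 0 in Xbp1-Ire1 KO against WT and 18 left of 0 between the knockouts.

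In cDC1 of Xbp1-Ire1 KO, 8 genes were lower than in WT and 0 higher: the phosphatase genes Dusp1 and Dusp2, Klf2, and the feedback genes Gadd45b, Ier3, Tnfaip3, Zfp36 and Zfp36l1. By edgeR, 15 of the 34 had an unadjusted p under 0.05. Of all genes tested, 4.71% were called lower and 3.04% higher, and the medians were −0.17 for the list and 0.01 for all genes. No AP-1 gene was called (0 of 8), and Atf3 and Fosb had fold changes above 0 (1.38 and 0.84, adjusted p = 0.0764 and 0.0646).

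Dusp2 levels were 143, 145 and 189 CPM in Xbp1-Ire1 KO and 410.0, 298 and 257 CPM in WT, the last being the WT-named library (−1.02 ± 0.18, adjusted p = 0.00317). Klf2 lay at 132, 194 and 165.5 CPM against 322, 312 and 272 CPM (−0.88 ± 0.16, adjusted p = 0.00396). Tnfaip3 lay at 72.2, 60.8 and 65.5 CPM against 107, 103 and 177 CPM (−0.96 ± 0.19, adjusted p = 0.00667). Zfp36l1 lay at 118, 107 and 112 CPM against 184.5, 149.7 and 281 CPM (−0.87 ± 0.19, adjusted p = 0.0115). The knockout libraries were below WT libraries of both names for each of these 4 genes. Their calls against WT with the names pooled held under every alternative. Neutrophil markers summed to 17.9 to 57.5 CPM in Xbp1-Ire1 KO against 1.37 to 8.74 CPM in WT, erythroid markers to 6.03 to 19.2 against 0.947 to 5.57 CPM and cDC2 markers to 261 to 311 against 188 to 243 CPM. Plasmacytoid dendritic cell markers were lower, at 85.5 to 91.2 against 101 to 116 CPM. The part of these cells in the result was not tested.

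Here too the WT libraries set the count: it was 4 without fl-fl replicate 1 and 19 without the WT-named library. Calls of Dusp1 and Zfp36 were lost without fl-fl replicate 1 or Xbp1-Ire1 KO replicate 1 (adjusted p up to 0.0729 and 0.0741), and that of Ier3 without fl-fl replicate 1 or Xbp1-Ire1 KO replicate 3 (up to 0.0643). Gadd45b, a growth-arrest gene, lay at 35.6, 30.9 and 39.5 CPM against 87.8, 39.9 and 135 CPM in WT, so the fl-fl replicates were far apart. Its call was lost without fl-fl replicate 1 or any 1 of the Xbp1-Ire1 KO libraries, and with the groups fitted alone (up to 0.0912).

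With the names apart, 10 genes were lower and 9 higher in Xbp1-Ire1 KO than in fl-fl WT, where 8.44% and 7.01% of all genes were called. The 9 higher genes were Atf3, Egr3, Fosb, Fosl2, Hspa1a, Hspa1b, Nr4a1, Nr4a2 and Nr4a3. Against the WT-named library, 10 were lower and 1 (Myc) higher, where 3.41% and 2.39% of all genes were called. Both sets use the same knockout libraries. Dusp2 was called lower against fl-fl WT and was not called against the WT-named library. With fl-fl as the base and then with the WT-named library, the log2 change of Tnfaip3 was −0.68 and −1.43, that of Zfp36l1 −0.58 and −1.33 and that of Klf2 −0.96 and −0.74. The call of Zfp36l1 with fl-fl was lost without fl-fl replicate 1 (adjusted p = 0.12), and that of Klf2 with the WT-named library without any 1 of 5 libraries, either fl-fl replicate included (up to 0.0891). For Nr4a2 the sign differed, at 2.52 with fl-fl and −1.21 with the WT-named library, and both passed the test. The same held for Nr4a3 (1.47 and −1.01) and Hspa1b (2.03 and −0.89), though the lower call of Hspa1b was lost without Xbp1-Ire1 KO replicate 3 or Xbp1 KO replicate 1 (adjusted p up to 0.0566).

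In cDC2, no listed gene was called between genotypes with WT libraries pooled. Of all genes tested, 0.103% were called in Xbp1 KO against WT, 0.0258% in Xbp1-Ire1 KO against WT and 0.0343% between the knockouts. DESeq2 and limma on the deposited log2 values also called 0 of the 34 in each, and 14, 2 and 2 of the 34 had an unadjusted p under 0.05 in edgeR. The medians of the list were 0.58, 0.38 and −0.32. Nr4a1, for example, had 5339, 5930 and 4569 CPM in Xbp1 KO, 3913, 4544 and 3499 CPM in Xbp1-Ire1 KO, 802 and 870.0 CPM in fl-fl WT and 4578 and 3985 CPM in WT-named libraries. The groups therefore overlapped through the WT-named libraries, while fl-fl stood below all.

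Set against fl-fl WT alone, cDC2 of Xbp1 KO had 22 genes higher and 0 lower, where 4.25% and 3.13% of all genes were called, and 25 of 34 had an unadjusted p under 0.05. The count was 14 without fl-fl replicate 1. Xbp1-Ire1 KO had 19 higher and 1 (Egr1, lost without either fl-fl library among others, adjusted p up to 0.311) lower, against 2.89% and 2.12% of all genes, and the count was 11 without fl-fl replicate 2. Both comparisons share the fl-fl libraries, and so does the one between the WT names. Against the WT-named libraries, 0 of the 34 were called in either knockout, where 0.0586% and 0.0251% of all genes were called. There, 4 and 2 of the 34 had an unadjusted p under 0.05 in edgeR, and DESeq2 called 1 for Xbp1 KO. The median log2 change of the list against the WT-named libraries was 0.26 for Xbp1 KO and −0.03 for Xbp1-Ire1 KO.

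Heat shock genes varied within the cDC2 groups. Hspa1b had 95.1, 332 and 88.0 CPM in Xbp1 KO, 165, 421.5 and 160.1 CPM in Xbp1-Ire1 KO, and 118 and 225 CPM in the WT-named libraries. Replicate 2 was the highest of each knockout group, for Hspa1a and Dnajb1 as well. In fl-fl WT, Hspa1b lay at 31.5 and 25.3 CPM, below all others.

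Whether the genotype effect differed between cell types was tested as an interaction over all 19 libraries. That fit did not pair cDC1 with cDC2 libraries, which may share mice. It pooled WT libraries of both names, which were in unequal parts in cDC1 and cDC2. In the comparisons with WT, differences by name and by cell type therefore cannot be told apart. The spread between the names also enters the p-values. For Xbp1 KO against WT, 0 of the 34 were called (2.17% of all genes), 0 had an unadjusted p under 0.05 in edgeR, and DESeq2 called 0. For Xbp1-Ire1 KO against WT, Dusp1 and Tnfaip3 were called, both with a higher change in cDC2 (1.48% of all genes were called higher and 0.755% lower). Dusp1 changed by −0.78 in cDC1 and 0.23 in cDC2, a difference of 1.02 ± 0.25 (adjusted p = 0.0317). Tnfaip3 changed by −0.96 and 0.57, a difference of 1.56 ± 0.39 (adjusted p = 0.0357). Both calls were lost without any 1 of the fl-fl cDC2 replicates 1 and 2, cDC1 Xbp1-Ire1 KO replicate 1, cDC2 Xbp1-Ire1 KO replicates 1 and 2, and cDC2 Xbp1 KO replicates 1 and 3, where the count was 0. It was 1 without cDC1 fl-fl replicate 1, cDC1 Xbp1-Ire1 KO replicate 2 or cDC2 Xbp1 KO replicate 2, and 4 without cDC1 fl-fl replicate 2.

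Between the knockouts, Zfp36 was the gene whose change differed by cell type (0.32% of all genes called higher, 1.82% lower). It changed by −0.89 in cDC1 and −0.05 in cDC2, a difference of 0.86 ± 0.17 (adjusted p = 0.0048). Its cDC2 levels in Xbp1 KO were 3481, 3777 and 3635 CPM, and those in the double knockout 3733, 3260 and 3518 CPM, so these groups overlapped. For the other listed genes a difference between the cell types was not shown, although 11 of the 34 had an unadjusted p under 0.05.

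Within a genotype, and with no pairing of the cell types in the fit, cDC2 had higher levels of some listed genes than cDC1. In fl-fl WT, 7 were higher (Dusp1, Fosl2, Jun, Maff, Rhob, Socs3 and Zfp36) and 2 lower (Jund and Klf6), where 16.1% and 15.6% of all genes were called. In Xbp1 KO, 15 were higher and 5 lower (Egr1, Egr2, Egr3, Ier5 and Nr4a2), against 21.1% and 19% of all genes. In Xbp1-Ire1 KO, 24 were higher and 0 lower, against 21.2% and 22.3% of all genes. By edgeR 26 of 34 had an unadjusted p under 0.05, with no like share of all genes computed.

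Rhob, an early-response small GTPase gene, was among the most different, at 17.02 to 29.03 CPM in cDC1 and 42.2 to 139.8 CPM in cDC2, with log2 differences of 1.93 ± 0.31 in fl-fl WT, 2.12 ± 0.25 in Xbp1 KO and 2.01 ± 0.26 in Xbp1-Ire1 KO. The cytokine signalling inhibitor gene Socs3 differed by 1.69, 1.56 and 2.34. Socs3 counts were low in cDC1, at 8.24 to 21.3 CPM, against 37.1 to 79.3 CPM in cDC2. Dusp1 differed by 1.00 ± 0.19, 1.44 ± 0.16 and 2.30 ± 0.16, and Tnfaip3 by 0.60 (adjusted p = 0.0608), 1.61 and 2.37. Summed monocyte markers lay at 53.1 to 220 CPM in cDC1 and 795 to 1450 CPM in cDC2, led by Csf1r and Ccr2 in cDC1 and by Csf1r in cDC2, and their part in these differences was not tested.

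**Figure D5:**
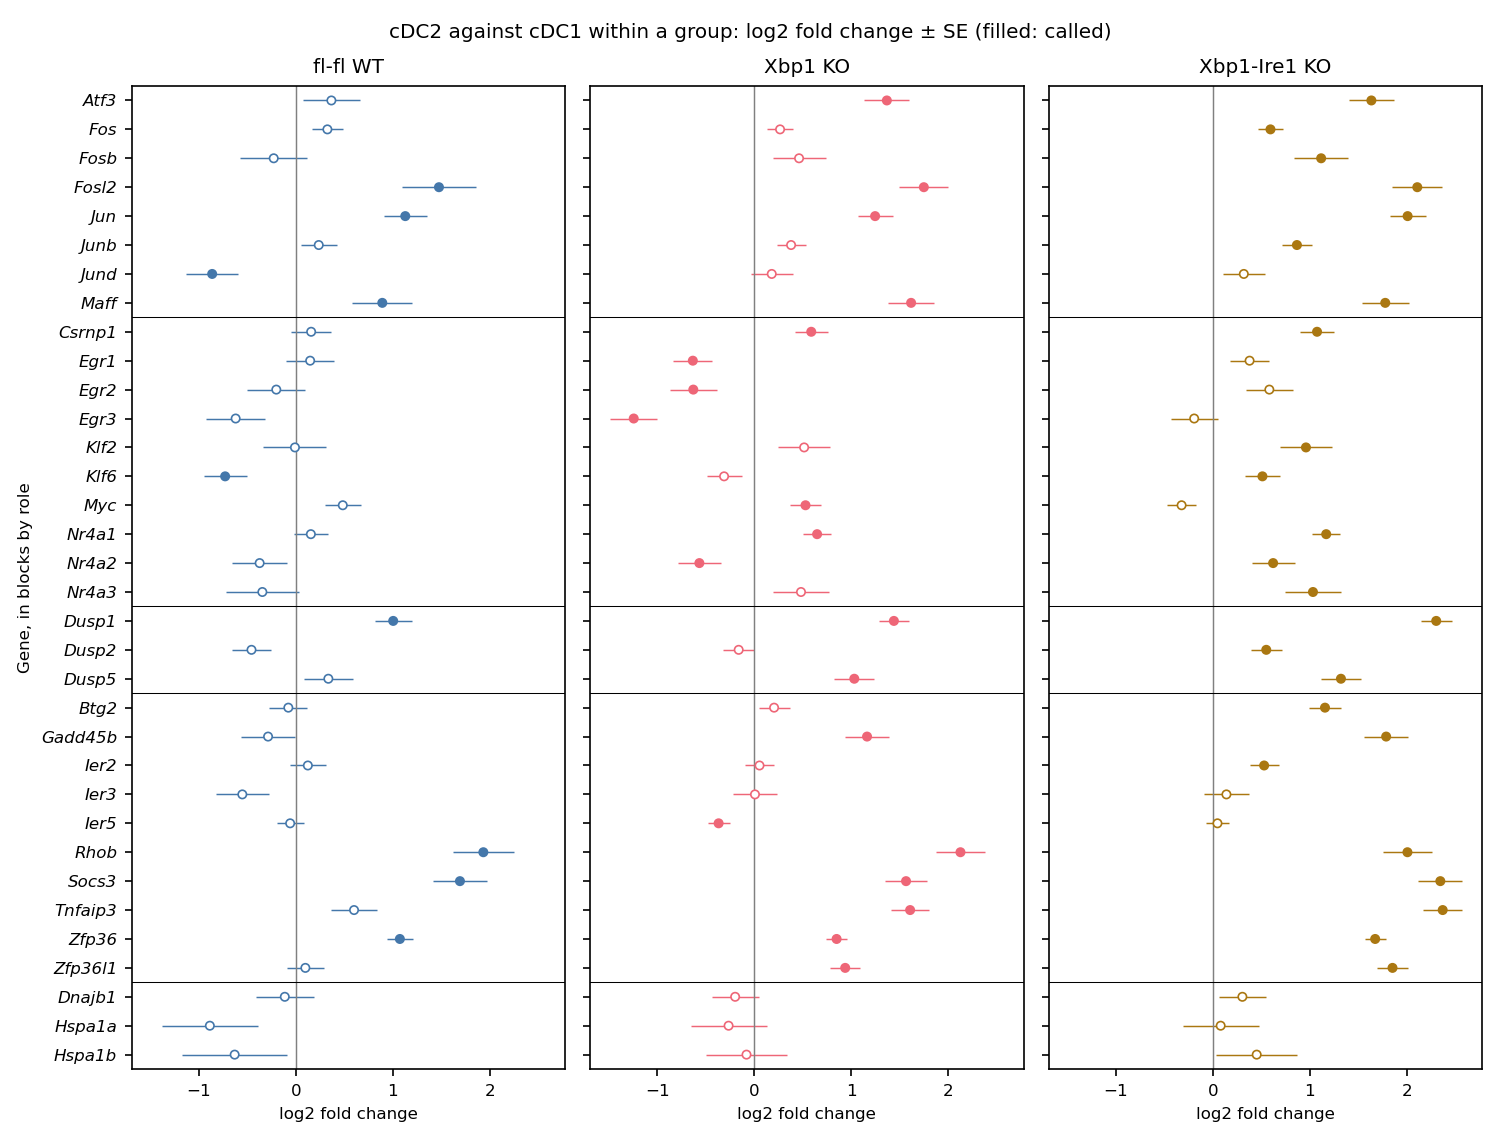
Log2 fold change of cDC2 against cDC1 for each listed gene within fl-fl WT, Xbp1 KO and Xbp1-Ire1 KO, with bars of 1 SE; filled symbols passed an adjusted p of 0.05. The Egr genes lie left of 0 and are filled in Xbp1 KO, and 24 genes are filled right of 0 in Xbp1-Ire1 KO.

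Other genes of the same response were read from 3 further lists. Of kinases and transcription factors upstream of immediate early genes, 26 of 28 were in the tables and tested. In cDC1, 1 rose and 1 fell in Xbp1 KO against WT, 0 rose and 1 fell in Xbp1-Ire1 KO against WT, and 0 rose and 3 fell between the knockouts. In the same order, 4.28%, 3.04% and 7.13% of all genes rose and 6.91%, 4.71% and 5.52% fell, so counts of 1 in 26 are near that background. Crem, a CREB-family gene with an inducible repressor product, lay at a mean of 33.5 CPM in Xbp1 KO against 10.4 in WT (1.69 ± 0.36, adjusted p = 0.0105), and it fell by 1.60 on the log2 scale between the knockouts (adjusted p = 0.0119). Between the WT names, Crem was the 1 gene of that list called in either cell type (1.56 ± 0.31 in cDC1 and 2.45 ± 0.46 in cDC2).

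Of 46 other early response genes, 42 were tested in cDC1. There, 9 rose and 1 fell in Xbp1 KO against WT, 3 rose and 6 fell in Xbp1-Ire1 KO against WT, and 1 rose and 11 fell between the knockouts. The shares of all genes that rose and fell were 4.28% and 6.91%, 3.04% and 4.71%, and 7.13% and 5.52%. The cytokine gene Tnf lay at a mean of 9.89 CPM in Xbp1-Ire1 KO, 34.4 in Xbp1 KO and 47.8 in WT, and the NF-kB inhibitor gene Nfkbia at 150 CPM in Xbp1-Ire1 KO against 355 in WT. Cebpb, a leucine-zipper factor gene, rose instead, to 119.7 CPM in Xbp1-Ire1 KO from 39.9 in Xbp1 KO and 17.6 in WT (2.77 ± 0.15 for Xbp1-Ire1 KO against WT, adjusted p = 4.63e-07).

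Between the WT names, 18 of 43 of these genes were higher and 1 lower in cDC1, and 22 of 41 higher and 1 lower in cDC2, where 3.15% and 2.09% of all genes in cDC1 and 2.14% and 1.26% in cDC2 were called. Il1b, encoding interleukin-1 beta, lay at a mean of 2807 CPM in WT-named and 253 CPM in fl-fl cDC2, and the prostaglandin synthase gene Ptgs2 at 1734 and 210.1 CPM. In cDC1, the chemokine gene Ccl4 lay at 252 and 29.5 CPM and the kinase gene Plk3 at 119 and 14.4 CPM. Of 18 other heat shock response genes tested in cDC1, 1 rose in Xbp1 KO against WT, 1 rose and 1 fell in Xbp1-Ire1 KO against WT, and 1 rose between the knockouts, which is near the shares of all genes called there (4.28%, 3.04% with 4.71%, and 7.13%). Between the names, 0 of 19 in cDC1 and 0 of 18 in cDC2 were called by edgeR, and 2 in each had an unadjusted p under 0.05.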

How the data were processed

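Bulk RNA-seq of 19 libraries was used, grouped by the labelled cell type and genotype, and for WT also by library name. Per the file headers, the authors deposited raw counts per gene symbol for each library, and log2 expression values for the genes they kept (11059 in cDC1, 11441 in cDC2, each with all 34 members). Per the submitters' processing notes, Trimmomatic 0.35, TopHat2 2.1.0, SAMtools 0.1.19, FastQC 0.11.4, limma 3.42.2 and mm10 were used. The sources used here do not name the read counter or its annotation.

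Counts were filtered with filterByExpr (minimum count 10, minimum total 15), scaled by TMM and tested with the quasi-likelihood F test of edgeR 4.0.16 in R 4.3.3, with Benjamini-Hochberg adjustment over all genes tested. Calls were made at an adjusted p under 0.05. Each cell type was fitted with its 3 genotypes, then with the WT names apart, and all 19 libraries were fitted together for interactions and cell types. Each SE was taken as the size of the log2 change over the root of its F. Marker sums are unscaled CPM over all counts, while Xbp1 and Ern1 are CPM scaled by TMM within a cell type. No 2 libraries had identical counts. Coordinates are GRCm38 (GENCODE M21, the mm10 assembly). Alternatives were DESeq2 1.42.0 and its size factors, no filter, a replicate block, the compared groups alone, limma 3.58.1 on the deposited log2 values, and each library left out. The fits were tested on simulated counts. Depth was 10606864 to 16209469 counts per library, so genes with the fewest counts have the least precise values.

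The members, the lists and the tests were chosen with earlier results of these data known. Every member could be named, as could up to 4 called genes of each further list with the smallest adjusted p. Plots were made in Python 3.11.15 with matplotlib 3.10.9.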

Additional observations from a re-analysis of the deposited data

Results flagged for a closer look

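In cDC2 WT, Egr2 of replicate 4, a WT-named library, lay at 707 CPM, far above the other 3 libraries (392 to 425 CPM): its gap to the next library was 0.888 of the range of the group. Among the 34 genes tested in these 4 libraries this was 1 case, and chance gives about 1 in 20.

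Changes that differed between cell types were also singled out. The change of Dusp1 in Xbp1-Ire1 KO against WT was higher in cDC2 than in cDC1 by 1.02 on the log2 scale (adjusted p = 0.0317 by edgeR), and that of Tnfaip3 by 1.56 (adjusted p = 0.0357). Both pool the WT names, which were in unequal parts in the cell types. The change of Zfp36 between the knockouts was higher in cDC2 by 0.858 (adjusted p = 0.0048). In each case the 3 cDC1 libraries of Xbp1-Ire1 KO were below all cDC1 libraries of the group compared. The cDC2 groups overlapped for Dusp1, Tnfaip3 and Zfp36 alike.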

How the results depend on the processing

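Counts of called genes among the 34 were recomputed under each alternative. With the DESeq2 Wald test, the count was 15 for cDC1 Xbp1 KO against WT, 10 for cDC1 Xbp1 KO against the WT-named library, 1 for cDC2 Xbp1 KO against WT-named, and 5 and 3 for the interactions of Xbp1-Ire1 KO against WT and against Xbp1 KO. With no filter these became 14, 13 and 2, with 21 for cDC1 Xbp1-Ire1 KO against the WT-named library, 5 for the interaction of Xbp1-Ire1 KO against WT and 14 for the cell types in fl-fl WT. With the knockouts of cDC1 fitted alone it was 30. With each library left out in turn, the counts ran from 3 to 23 for cDC1 Xbp1 KO against WT, 4 to 19 for Xbp1-Ire1 KO against WT, 12 to 30 between the cDC1 knockouts, 9 to 18 and 11 to 22 between the WT names in cDC1 and cDC2, 2 to 8 for cDC1 Xbp1 KO against WT-named, 14 to 24 and 11 to 21 for cDC2 Xbp1 KO and Xbp1-Ire1 KO against fl-fl, 0 to 4 for the interaction of Xbp1-Ire1 KO against WT and 1 to 2 for that between the knockouts.

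The replicate block gave 1 call for cDC2 Xbp1-Ire1 KO against WT-named libraries, 12 for cDC1 Xbp1 KO against WT, 10 for Xbp1-Ire1 KO against WT and 21 between the cDC1 knockouts. It ended the calls of Egr1 and Myc between the WT names in cDC2 (adjusted p = 0.107 and 0.0831), of Btg2 between the names in cDC1 (0.0652) and of Jun in cDC1 Xbp1-Ire1 KO against the WT-named library (0.0504), and the cause was not tested. Same-numbered libraries correlated at −0.178 to 0.251 in cDC1 (above 0.1 in 3 of 9 pairs) and −0.145 to 0.281 in cDC2 (2 of 9). The highest value in either cell type was that of replicate 2 of the knockouts. These replicate numbers differ in part from the numbers in the library names, so the check cannot tell whether libraries were paired. Over 165 results for single genes and 2243 values, 2058 kept their direction and call, 185 lost the call and 0 reversed.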

Other observations

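Ratios of paralogs within a library, which do not depend on its depth, were computed for pairs chosen after their values were seen. The log2 ratio of Fosb to Fos counts lay at −5.32 and −5.23 in the fl-fl cDC1 libraries and at −4.03 to −3.06 in the other cDC1 libraries, and at −5.85 and −5.82 against −3.86 to −2.82 in cDC2. For Egr3 to Egr1 it lay at −4.88 and −4.72 against −2.70 to −2.10 in cDC1, and at −5.84 and −5.29 against −3.43 to −2.60 in cDC2. For Nr4a2 to Nr4a1 it lay at −3.67 and −3.66 against −2.52 to −1.54 in cDC1, and at −4.23 and −4.16 against −3.17 to −2.63 in cDC2. In all 3 ratios, and in both cell types, the fl-fl libraries were below every other library, WT-named and knockout alike. These ratios are a description, without a test.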
